A study of Mus musculus with 8 samples.

Results

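The cells described here are IgM cells that carried no mutation in the heavy-chain V segment although they belonged to a large clone. They were taken from paired B-cell receptor sequencing of spleen germinal-centre B cells of Dtx1-/- mice (KO, 4 libraries) and Dtx1+/+ mice (WT, 4 libraries), collected on day 10 after immunization. Per the labels, cells were captured with peanut agglutinin beads and run on a droplet platform with amplification of mouse receptor transcripts. The labels name neither the immunogen nor the number of mice, the sort gates or the way the allele was made. A paired cell was a barcode with exactly 1 heavy and 1 light chain. A clone shared the heavy V and J genes, the light V and J genes and the heavy CDR3 length, with heavy CDR3 nucleotide identity of at least 85% by single linkage over the 4 libraries of a genotype, and it was large at 10 or more cells. An unmutated heavy V segment equalled, from framework 1 to framework 3, the most common sequence of its V gene over distinct receptors of all 8 libraries. By this rule 11275 of 40603 paired cells were unmutated IgM cells of large clones, 5299 of 21896 in KO and 5976 of 18707 in WT. The constant gene, the clone size and the absence of heavy V mutation chose the cells and are a description here, not a finding.

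IgM is the first antibody class that a B cell makes. In the germinal centre, activated B cells divide, and the enzyme AID introduces point mutations into both V regions and drives class switching to IgG, IgA or IgE. The heavy CDR3 spans the junction of the V, D and J segments and is the part of the receptor that differs most between B cells at the outset, so it serves as the tag of a clone. Dtx1 encodes Deltex-1, an E3 ubiquitin ligase that acts on the Notch pathway. Receptor contigs hold no Dtx1 transcript, so the knockout itself could not be checked in these data.

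The 10 sequences that follow are the most common heavy CDR3s of the 5 clones with most unmutated IgM cells in each pool. The list ranks clones, not single CDR3s. The CDR3 shown was carried by 38 of 122 such cells in KO clone 1, 31 of 82 in KO clone 2 and 30 of 74 in KO clone 4. The sequences are read from the deposited contigs, 5′ to 3′, from the conserved cysteine codon to the conserved tryptophan codon. Capitals mark the bases between the stretch usual for the V gene and the stretch usual for the J gene, which is where receptors differ.
KO clone 1, IGHV12-3 with IGKV4-91: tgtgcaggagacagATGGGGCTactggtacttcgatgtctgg
KO clone 2, IGHV1-72 with IGKV10-96: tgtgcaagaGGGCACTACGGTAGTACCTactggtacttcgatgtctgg
KO clone 3, IGHV5-17 with IGKV8-34: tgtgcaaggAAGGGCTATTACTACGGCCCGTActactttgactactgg
KO clone 4, IGHV1-62-2 with IGKV2-137: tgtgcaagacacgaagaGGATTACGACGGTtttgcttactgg
KO clone 5, IGHV1-72 with IGKV8-30: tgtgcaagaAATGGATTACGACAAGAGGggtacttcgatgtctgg
WT clone 1, IGHV1-9 with IGKV3-4: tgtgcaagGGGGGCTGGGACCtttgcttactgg
WT clone 2, IGHV8-8 with IGKV14-100: tgtgctcgaCACCCctttgactactgg
WT clone 3, IGHV1-42 with IGKV1-117: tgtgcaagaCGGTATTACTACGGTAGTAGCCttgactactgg
WT clone 4, IGHV1-55 with IGKV13-85: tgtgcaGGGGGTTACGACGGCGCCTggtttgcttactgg
WT clone 5, IGHV1-62-2 with IGKV2-137: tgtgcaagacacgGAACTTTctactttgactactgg

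KO libraries held 5045 to 5712 paired cells and 883091 to 1155339 UMIs, and WT libraries held 4585 to 4842 paired cells and 754954 to 765119 UMIs. Most clones were spread over all libraries of their genotype, so the 4 libraries of a genotype were loadings of 1 pool of cells. All tests between genotypes therefore compare 2 pools and say nothing of the spread between mice. Tests of differences within libraries use 8 differences that come from these same 2 pools, so they too measure the spread between loadings. Tests between genotypes are exact two-sided permutation tests over 70 assignments of 8 libraries, and the smallest p they allow is 0.0286. Of 11189 distinct barcodes of unmutated IgM cells, 84 occurred in more than 1 library, and 0 of those lay in the same clone.

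Unmutated IgM cells of large clones took a smaller share of the KO pool than of the WT pool. They were 23.4, 24.7, 24.5 and 24.1% of paired cells in the 4 KO libraries, against 31.5, 30.8, 32.8 and 32.7% in the 4 WT libraries. All 4 KO libraries lay below all 4 WT libraries. The mean was 24.2 ± 0.56% in KO and 32.0 ± 0.97% in WT (SD, n = 4 each), a difference of -7.76 percentage points. It was -4.44 points with clones of 5 or more cells and -3.78 points over heavy V genes with at least 20 clones and 1 segment length. With KO thinned to the 18707 paired cells of WT, a mean of 4085.9 KO cells qualified, against 5976 in WT. Within large clones the order was the other way: 95.4 ± 0.25% of IgM cells were unmutated in KO and 87.5 ± 0.45% in WT (SD, n = 4 each), 7.88 points higher in KO. Both shares are made of the values that chose the cells, so they are given with no test.

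**Figure D1:**
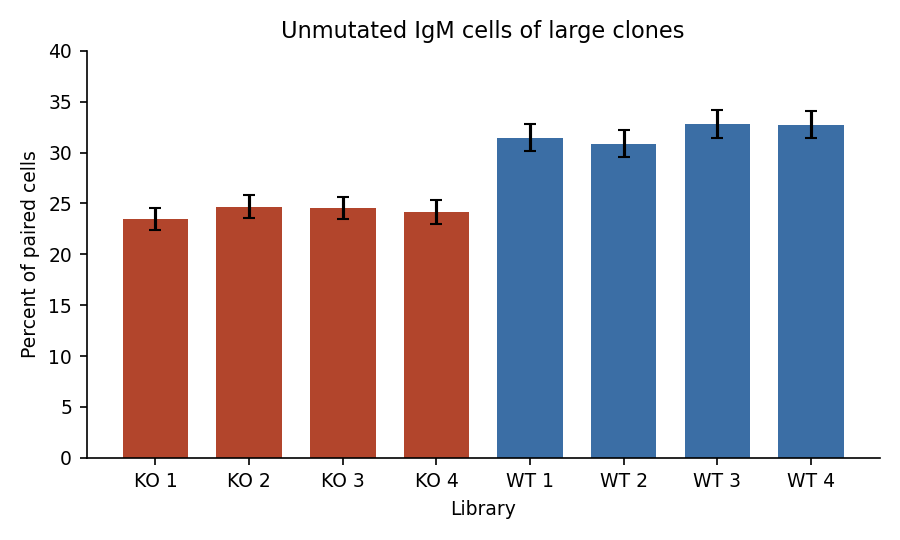
Percent of paired cells of each library that were unmutated IgM cells of large clones; bars are the 4 KO and the 4 WT libraries, and error bars are 95% Wilson intervals, which cover counting error only. The KO bars lie between 23.4 and 24.7% and the WT bars between 30.8 and 32.8%.

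Just outside the mutation threshold, 73 KO and 160 WT IgM cells of large clones carried 1 heavy V mutation, 69 KO and 189 WT cells carried 2, 43 KO and 174 WT cells carried 3, and 73 KO and 333 WT cells carried 4 or more. Just outside the size threshold, clones of 9 cells numbered 53 in KO and 49 in WT and held 410 unmutated IgM cells in KO and 278 in WT. Clones of 10 cells numbered 46 in KO and 24 in WT and held 414 in KO and 170 in WT. IgD, a mark of naive B cells, was the constant gene of 0 KO cells and 1 WT cell of large clones. It was rare among all paired cells too, at 27 of 21896 in KO and 122 of 18707 in WT.

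Most unmutated IgM cells of large clones had heavy and light CDR3s that many others of their clone repeated to the last base. In KO 84.1% and in WT 89.5% of them had CDR3s carried by 10 or more such cells. The clone size that chose the cells favours this. To describe this without the clone rule, all paired cells of any class were grouped by an identical heavy V segment, identical heavy and light CDR3s and the same light V gene. In KO, 243 such receptors were each found in 10 or more cells, and they held 4479 cells, of which 4471 were IgM and 1 was class-switched. In WT, 241 such receptors held 5369 cells, of which 5368 were IgM and 0 were switched, a count that allows a share of up to 0.0559%. All 243 KO and all 241 WT receptors had an unmutated heavy V segment. The largest held 81 cells in KO and 217 in WT. Switched cells were few among all paired cells with an unmutated heavy V segment, at 229 of 17087 in KO and 96 of 12244 in WT.

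By construction, a cell that gains a mutation in these regions leaves its block, so the mutated cells are given as a description only. No receptor with a mutated heavy V segment reached 10 cells: 0 of 4795 mutated KO cells, which allows up to 0.0626%, and 0 of 6440 mutated WT cells, which allows up to 0.0466%. The most repeated mutated receptor was found in 3 cells in KO and 5 in WT, and 97.6% of mutated KO cells and 97.3% of mutated WT cells had a receptor of their own. Among unmutated cells, 34.2% in KO and 28.1% in WT had a receptor of their own, while 26.2% in KO and 43.9% in WT shared theirs with at least 9 other cells.

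**Figure D2:**
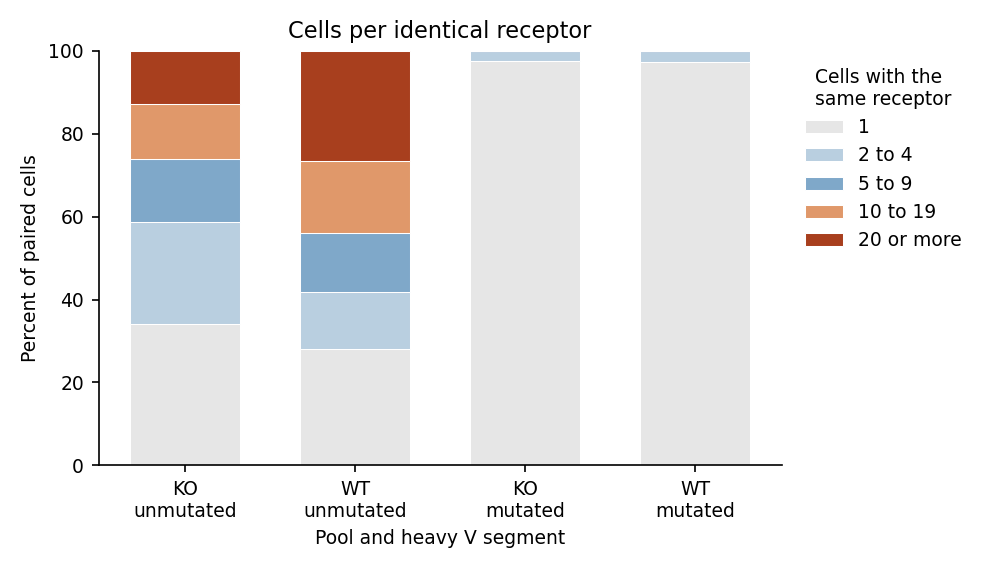
Percent of paired cells by the number of cells that carried the identical receptor, for cells with an unmutated and with a mutated heavy V segment in the KO and WT pools. Receptors of 10 or more cells (orange and red) hold 26.2% of unmutated KO cells and 43.9% of unmutated WT cells, and none of the mutated cells.

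The unmutated IgM cells lay in 284 KO clones and 281 WT clones. A clone held a median of 15 of them in both pools, with a range of 1 to 122 in KO and 1 to 246 in WT. In 216 KO clones (76.1%) and 181 WT clones (64.4%) every cell was an unmutated IgM cell. Clones were spread over the loadings: 245 of 284 KO clones and 233 of 281 WT clones had such cells in all 4 libraries of their pool, and 5 KO and 12 WT clones had them in only 1.

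KO clone 1 (IGHV12-3, IGKV4-91) had 37, 22, 37 and 26 unmutated IgM cells in the 4 KO libraries, 122 in all. IGHV12-3 lies on chromosome 12 at 114366526 to 114366819 (GRCm38.p6), and its pairing with this kappa gene is known in mice from B-1 cells that bind phosphatidylcholine. WT clone 1 (IGHV1-9, IGKV3-4) had 61, 72, 51 and 62 such cells, 246 in all, more than 2 times the second WT clone of 104. Both clones were high in every library of their own pool, and neither rested on 1 library.

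The 10 largest clones held 14.8, 12.6, 13.8 and 13.9% of the unmutated IgM cells in the KO libraries, against 16.6, 17.1, 16.5 and 15.9% in the WT libraries. The KO libraries all lay below the WT libraries, with means of 13.7 ± 0.92% in KO and 16.5 ± 0.50% in WT (SD, n = 4 each, difference -2.79 points). Clone size chose the cells, so this share is given with no test. The difference was -1.21 points once the KO pool was thinned to the 18707 paired cells of WT, and 0.164 points with clones of 20 or more cells.

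**Figure D3:**
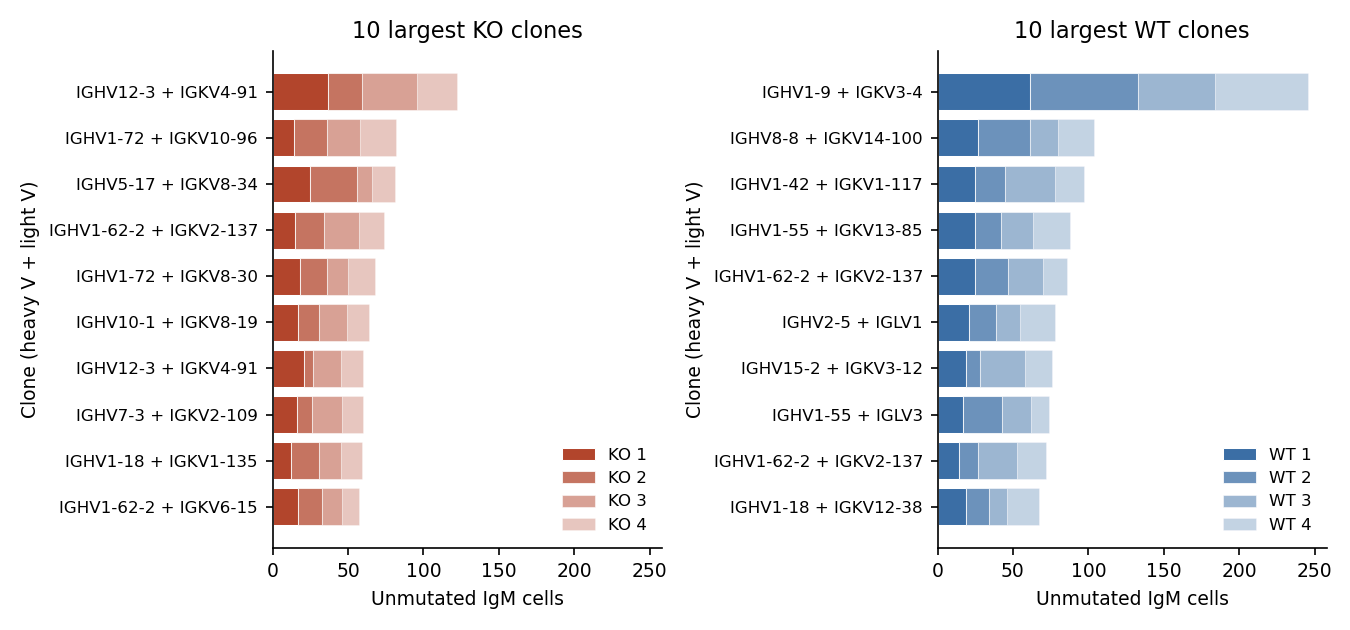
Unmutated IgM cells of the 10 largest KO clones (left) and the 10 largest WT clones (right), stacked by library; each row is a clone named by its heavy and light V genes. Every clone draws cells from all 4 libraries of its pool, and the IGHV1-9 clone of WT reaches 246 cells.

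The light V segments of these cells were also close to unmutated. The rule used the light V and J genes to join clones, but not light V mutation. The light V segment had no mutation in 99.8, 99.6, 99.8 and 99.7% of unmutated IgM cells in the KO libraries and in 99.1, 99.2, 99.5 and 99.2% in the WT libraries. In counts, 15 of 5299 cells in KO and 44 of 5976 in WT carried any light V mutation. The mutated IgM cells of large clones differed sharply: 136 of 257 in KO and 517 of 855 in WT had a mutated light V segment. Within libraries the share without light mutation was 56.0 points higher in unmutated than in mutated IgM cells of large clones, in 8 of 8 libraries. This is given with no test because heavy-chain mutation split these cells.

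Unmutated IgM cells of large clones were also less often mutated in the light chain than unmutated IgM cells that were alone in their clone. Of the single cells, 277 of 4901 in KO and 216 of 2828 in WT had a light V mutation. The share without mutation was 6.09 points higher in the large clones, in 8 of 8 libraries (exact sign-flip permutation p = 0.0078, 0.0104 after Benjamini-Hochberg adjustment over 8 tests). The difference in this gap between the pools did not pass its test, at 5.37 ± 0.81 points in KO and 6.80 ± 2.80 points in WT (SD, n = 4 each; difference -1.43 points, exact permutation p = 0.543).

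Between the pools, the share with no light V mutation was 99.72 ± 0.12% in KO and 99.26 ± 0.14% in WT (SD, n = 4 each), 0.455 points higher in KO (exact permutation p = 0.0286, adjusted 0.0312 over a family of 12). With only cells of identical heavy and light CDR3 grouped as clones, the difference was 0.0357 points (exact permutation p = 0.486). The call was lost without KO replicate 1 (0.412 points), without KO replicate 3 (0.434) or without KO replicate 4 (0.471).

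Framework 4, the J-encoded end of the heavy V region, was also outside the rule. It differed from the usual sequence of its J gene in 1 of 5299 unmutated IgM cells in KO and in 2 of 5976 in WT. The single cells had 19 of 4902 in KO and 17 of 2829 in WT. The difference within libraries was -0.474 points, with the large clones lower, in 8 of 8 (exact sign-flip permutation p = 0.0078, adjusted 0.0104), although in KO replicate 1 the gap was -0.000839 points.

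**Figure D4:**
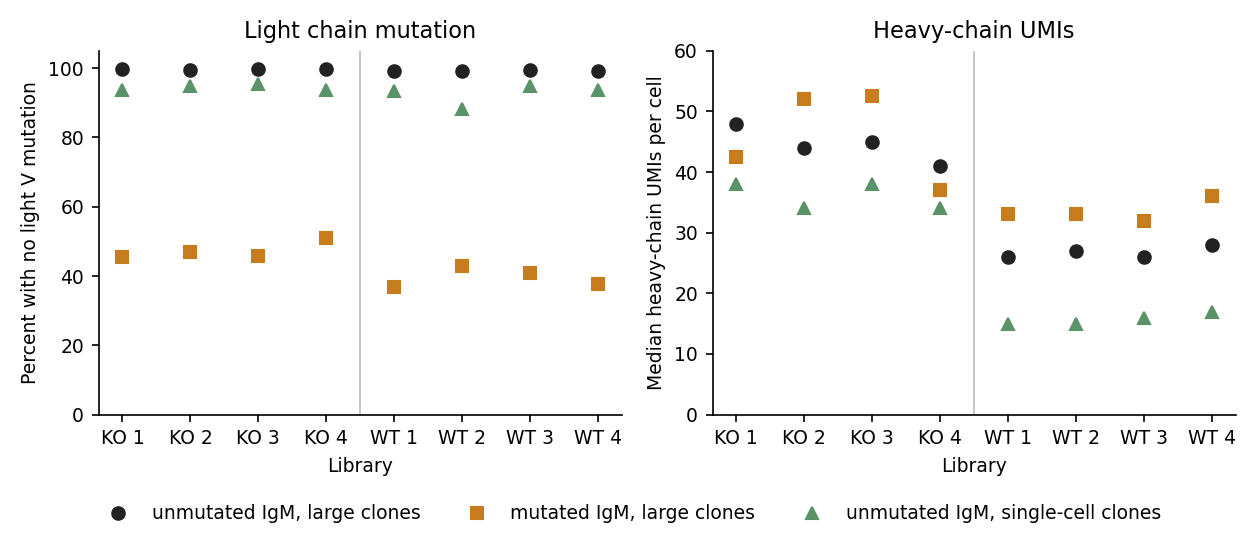
Left, percent of cells with no light V mutation; right, median heavy-chain UMIs per cell; each point is 1 library, KO left of the line and WT right of it, for unmutated IgM cells of large clones (circles), mutated IgM cells of large clones (squares) and unmutated IgM cells of single-cell clones (triangles). The circles lie at 99.1% or more in every library on the left, and above the triangles in every library on the right.

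Within the identity that the clone rule allows, some cells differed in the heavy CDR3. In KO, 721 unmutated IgM cells (301 distinct sequences in 86 clones) had a heavy CDR3 other than the most common one of their clone, and in WT 601 did (178 sequences in 81 clones). The share was 13.9, 12.1, 15 and 13.4% in the KO libraries and 9.98, 10.7, 9.70 and 9.93% in the WT libraries. All KO libraries lay above all WT libraries, with means of 13.6 ± 1.2% in KO and 10.1 ± 0.41% in WT (SD, n = 4 each, difference 3.55 points). Heavy CDR3 identity joined the clones, so this share is given with no test. The difference was 1.30 points with each clone counted once, 1.31 points without IGHV12-3 and 3.43 points without WT replicate 3.

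Such CDR3s were seldom 1 base away. They differed from the most common sequence by a median of 4 bases in KO and 5 in WT, and by a single base in 12.9% of the cells in KO and 7.32% in WT. Of them, 70.5% in KO and 73.0% in WT had the common light CDR3 of their clone, against 99.6% in KO and 99.5% in WT of the cells with the common heavy CDR3. Since the clone rule joins CDR3s at 85% identity, part of this variation is what the rule admits. In the mutated IgM cells of large clones, 194 of 258 in KO and 639 of 856 in WT had another CDR3. Within libraries the difference, unmutated minus mutated cells, was -63.1 points, given with no test because heavy-chain mutation split these cells.

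The variation was concentrated in some clones: 202 of 284 KO clones and 206 of 281 WT clones had 1 heavy CDR3 only. The largest KO clone had 20 heavy CDR3s, and 68.9% of its unmutated IgM cells carried one other than the most common. Its 4 most frequent CDR3s show how they differ, with capitals marking bases that differ from the first.
KO clone 1, 38 cells: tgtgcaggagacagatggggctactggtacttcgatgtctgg
KO clone 1, 36 cells: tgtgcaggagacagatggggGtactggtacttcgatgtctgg
KO clone 1, 11 cells: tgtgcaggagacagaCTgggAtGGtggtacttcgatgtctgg
KO clone 1, 7 cells: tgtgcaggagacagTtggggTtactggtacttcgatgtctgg
The differing bases lie in the middle of the junction, and the same light CDR3, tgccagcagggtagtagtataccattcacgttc, was the most common one beside each of them. The third largest KO clone (IGHV5-17 with IGKV8-34, 81 cells) and the second WT clone (IGHV8-8 with IGKV14-100, 104 cells) were the opposite, with 1 heavy and 1 light CDR3 in all cells.

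Some large clones also held mutated or switched cells, and fewer did in KO. Clones with at least 1 mutated IgM cell were 53 of 284 in KO and 95 of 281 in WT, and clones with at least 1 switched cell were 30 in KO and 51 in WT. Of the unmutated IgM cells, 17.6, 17.0, 18.0 and 17.8% in the KO libraries and 34.7, 35.6, 33.5 and 31.7% in the WT libraries were in a clone with mutated IgM cells. The difference of means was -16.3 points, given with no test because heavy V mutation and clone membership chose the cells. Among all paired cells with a mutation count, 4795 in KO and 6440 in WT had a mutated heavy V segment. It was unmutated in 17087 in KO and 12244 in WT. Switched cells were 229 of these unmutated cells and 1225 of the mutated ones in KO, and 96 and 1288 in WT. For clones with switched cells the means were 7.98 ± 0.60% in KO and 18.7 ± 1.59% in WT (SD, n = 4 each, difference -10.7 points). This too is given with no test, because clone membership chose the cells.

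Both of these measures rested on the identity that joins a clone. At an identity of 95%, 5.68% of the cells in KO and 6.53% in WT were in a clone with mutated IgM cells, a difference of -0.844 points. With identical heavy and light CDR3s, 0.231% in KO and 0% in WT were in a clone with switched cells. Only 29 of 258 mutated IgM cells in KO (11.2%) and 61 of 856 in WT (7.13%) had both CDR3s identical to an unmutated IgM cell of the same genes. Of the switched cells in the clones with unmutated IgM cells, mostly IGHG1 and IGHG2B, this held for 11 of 122 in KO and 7 of 158 in WT.

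Heavy-chain transcript counts of the unmutated IgM cells were higher in KO. The median was 48, 44, 45 and 41 UMIs per cell in the KO libraries and 26, 27, 26 and 28 in the WT libraries. The groups did not overlap (means 44.5 ± 2.89 in KO and 26.8 ± 0.96 in WT, SD, n = 4 each; exact permutation p = 0.0286, adjusted 0.0312). All paired cells showed the same order, with library medians of 37 to 41 heavy UMIs in KO and 22 to 25 in WT, so the depth of the libraries and the transcript content of the cells cannot be told apart in this comparison. Light-chain medians averaged 77.8 UMIs in KO and 66.8 in WT (difference 11, same p), and among cells with 20 to 40 heavy UMIs this was -4.63.

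Within libraries, which share a depth, the unmutated IgM cells of large clones had more heavy UMIs than those of single-cell clones. The medians of the single cells were 34 to 38 in KO and 15 to 17 in WT. The log2 ratio averaged 0.54 and was positive in 8 of 8 libraries (exact sign-flip permutation p = 0.0078, adjusted 0.0104). It was 0.31 ± 0.06 in KO and 0.77 ± 0.07 in WT (SD, n = 4 each), and this difference of -0.46 passed its own test (exact permutation p = 0.0286, adjusted 0.0381 over 4 tests). It was -0.48 to -0.43 and not called (adjusted exact permutation p = 0.0571) without KO replicate 1, 2, 3 or 4 or WT replicate 2. Against mutated IgM cells of large clones the log2 ratio was -0.18, lower in 6 of 8 libraries (exact sign-flip permutation p = 0.0625), which did not pass.

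Heavy UMIs varied from clone to clone. Clone membership accounted for 26.7% of the variance of log2 heavy UMIs among unmutated IgM cells in KO and 27.7% in WT. These shares are not corrected for the number of clones, which alone makes them larger than 0. Among clones with at least 20 such cells (85 in KO, 98 in WT), the clone median ran from 7 to 128.5 UMIs in KO and from 7 to 71 in WT. The highest KO value belonged to an IGHV1-81 clone with IGKV1-117 (20 cells), and the highest WT value to an IGHV1-81 clone with IGKV1-135 (37 cells). Very high heavy UMIs, above the 95th percentile of the paired cells of a library and used here as a mark of plasmablasts, were found in 5.39 to 6.49% of the unmutated IgM cells of KO libraries and 3.46 to 5.78% of those of WT libraries, near the 5% that the cutoff takes of all paired cells.

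The cells used 61 heavy V genes in KO and 61 in WT, with different genes in the lead. IGHV8-8 (7.38 ± 0.51%, 24 clones), IGHV1-72 (6.94 ± 0.34%, 16 clones) and IGHV1-53 (5.97 ± 0.60%, 16 clones) led among the unmutated IgM cells of KO (SD, n = 4), against 3.09, 1.58 and 2.26% in WT. In WT the leaders were IGHV1-55 (9.24 ± 0.56%, 22 clones), IGHV1-81 (8.47 ± 0.59%, 20 clones) and IGHV1-9 (8.35 ± 0.24%, 20 clones), which took 3.13, 3.03 and 5.24% in KO. Gene shares were not tested, and 1 clone could set one: without the largest clone of each pool, IGHV1-9 was 0.970 points higher in KO, against -3.11 points with it.

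**Figure D5:**
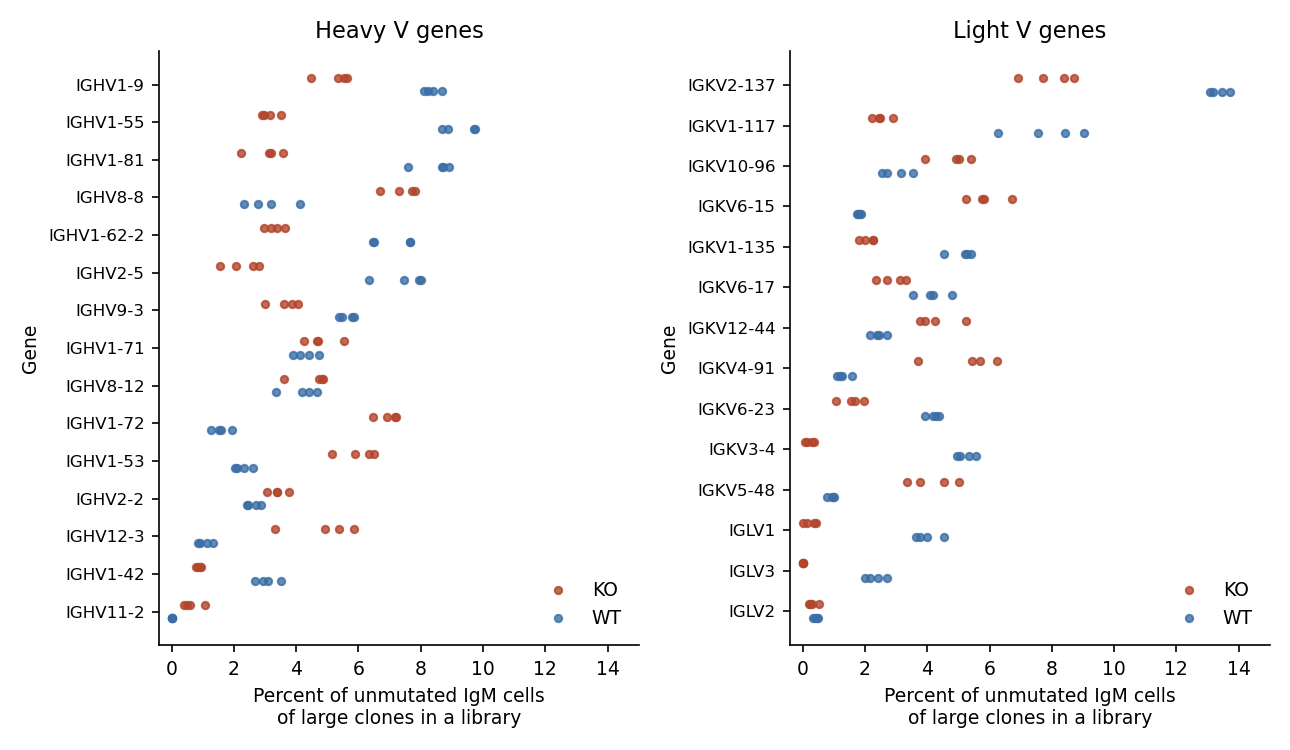
Percent of the unmutated IgM cells of large clones of a library that used each named heavy V gene (left) and light V gene (right); each point is 1 library, KO above WT in each row. The KO and WT points lie apart for most genes and overlap for IGHV1-71, IGHV8-12 and IGLV2.

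IGHV1-72, the V gene known from the anti-nitrophenyl response of C57BL/6 mice, where it pairs with a lambda chain, had 368 unmutated IgM cells in KO and 94 in WT. All 16 KO clones and all 6 WT clones of this gene used a kappa chain. The largest were 2 KO clones with IGHJ1, paired with IGKV10-96 (82 cells) and with IGKV8-30 (68 cells).

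The B-1-associated heavy chains IGHV11-2, IGHV12-3 and IGHV7-1 together made up 3.83 to 6.24% of the unmutated IgM cells of KO libraries and 0.836 to 1.33% of those of WT libraries. Among single cells they were 0.0873 to 0.321% in KO and 0.528 to 1.33% in WT. This contrast is a description, since the clone rule uses the light V gene and the heavy CDR3. All IGHV12-3 clones had heavy CDR3s of 42 bases and held 2 to 25 different ones, while the IGHV11-2 clone held 1. Whether the rule joined separate IGHV12-3 cells that would otherwise be single was not tested. IGHV12-3 supplied 257 cells in 5 KO clones and 63 cells in 2 WT clones, all paired with IGKV4-91. IGHV11-2 supplied 33 cells of 1 KO clone, with IGKV6-15, and 0 of 5976 cells in WT, which allows up to 0.0502%; IGHV7-1 supplied none in either pool. Their part in the other results was measured by leaving IGHV12-3 out, and it moved the difference in CDR3 variation as given above.

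IGHV1-62-2 and IGHV1-71 had the same germline over the 285 bases compared, so cells of these genes cannot be told apart by V sequence. Together they held 7.62, 8.72, 8.30 and 7.64% of the unmutated IgM cells in the KO libraries and 10.9, 11.8, 11.5 and 11.2% in the WT libraries. They paired with IGKV2-137 in 338 of 429 cells in KO (17 of 20 clones) and 678 of 678 in WT (23 of 23 clones). Among unmutated single cells of these genes this light chain was found in 30 of 84 in KO and 16 of 58 in WT. The clone rule uses the light V gene and the heavy CDR3, so this contrast is a description. Of the cells with this pairing, 93.8% in KO and 82.9% in WT had a heavy CDR3 that began with tgtgcaagacac. Unmutated single cells of the same heavy genes began so in 88.1% in KO and 93.1% in WT, and IGKV2-137 was the most used light V gene of the unmutated IgM cells in both pools (7.94 ± 0.79% in KO, 13.4 ± 0.29% in WT, SD, n = 4 each).

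Lambda light chains were rare in the unmutated IgM cells of KO. They were 0.308, 0.567, 0.655 and 0.657% of the cells in the KO libraries, against 6.83, 6.96, 6.13 and 7.00% in the WT libraries. The groups lay far apart (difference of means -6.18 points, exact permutation p = 0.0286, adjusted 0.0312). IGLV1 gave 12 cells in 2 KO clones and 238 cells in 9 WT clones, IGLV2 gave 17 cells in 1 KO clone and 25 cells in 2 WT clones, and IGLV3 gave 0 of 5299 cells in KO, which allows up to 0.0566%, and 139 cells in 5 WT clones. Single unmutated IgM cells had 4.78 ± 0.28% lambda in KO and 12.7 ± 1.28% in WT (SD, n = 4 each), and the difference within libraries, large clones minus single cells, was -5.10 points (lower in 8 of 8, exact sign-flip permutation p = 0.0078, adjusted 0.0104).

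The heavy J genes also differed in share of cells, though less in share of clones. IGHJ1 took 20.9 ± 0.74% of the unmutated IgM cells in KO and 13.0 ± 0.67% in WT, and IGHJ3 took 27.3 ± 0.86% in KO and 35.2 ± 1.03% in WT (SD, n = 4 each). Counted by clone, IGHJ1 was 17.3% in KO and 17.4% in WT (49 clones in each), and IGHJ3 was 26.1% in KO and 28.1% in WT. Unmutated single cells used IGHJ1 in 17.2% in KO and 19.3% in WT, and IGHJ3 in 23.5% in KO and 23.8% in WT. IGHJ2 (28.7% in KO, 29.0% in WT) and IGHJ4 (23.0% in KO, 22.8% in WT) lay close together. The heavy CDR3 averaged 14.4, 14.6, 14.5 and 14.5 amino acids in the KO libraries and 14.0, 13.9, 14.0 and 14.0 in the WT libraries (difference of means 0.546, exact permutation p = 0.0286, adjusted 0.0312). The gap to unmutated single cells was 0.374 amino acids higher in KO than in WT when cells were counted (exact permutation p = 0.0286, adjusted 0.0381). This was not called without KO replicate 1, 2, 3 or 4 or WT replicate 2 (0.336 to 0.426), and the same difference was -0.0375 amino acids with each clone counted once (exact permutation p = 0.429).

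Similar receptors formed large unmutated clones in both pools. When the clone rule was applied across pools, 31 groups held unmutated IgM cells of large clones from both, with 787 KO cells (14.9%) in 33 clones and 920 WT cells (15.4%) in 31 clones. IGHV1-62-2 or IGHV1-71 with IGKV2-137 made up 8 of the 31 groups. The most common CDR3s of the largest group, IGHV1-62-2 with IGHJ3 and IGKV2-137, are shown with capitals at the bases where WT differs from KO.
KO, 30 cells: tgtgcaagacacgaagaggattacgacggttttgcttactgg
WT, 57 cells: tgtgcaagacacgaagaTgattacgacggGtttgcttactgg
These differ at 2 bases. An identical heavy CDR3 was shared between the pools in 6 of the 31 groups, and the sequences of the other groups were similar but not identical.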

How the data were processed

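Receptor contigs of 8 libraries were analysed (4 KO, 4 WT). Per the file headers, each deposited table lists a read count and a UMI count per contig, gene names and region sequences; the counts are whole numbers with no normalization. The build mm10, Cell Ranger (no version stated) and R 4.3.1 are named by the submitters' processing notes. All 104649 contigs were marked productive and full length. Barcodes with several heavy or light chains, possible doublets, were left out, and no doublet caller was run. Gene names matched RefSeq GRCm38.p6 for all 150 genes looked up. The germline was the same in both pools for all 69 heavy V genes of these cells. It was seen in fewer than 20 distinct receptors for 3 of them, which held 110 cells (lowest 7 receptors). The same held for 28 of the 75 light V genes (lowest 5 receptors), on which the light mutation counts rest. An allele, or a change that most receptors of a gene carry, would pass as germline.

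The members, gene lists and tests were chosen with earlier results of these data known. Genes named are the 10 heavy and 6 kappa V genes used most in each pool, all J and lambda V genes, the B-1-associated genes and IGHV1-72. Within-library differences were tested by flipping the sign of 8 differences (256 assignments, smallest p 0.0078). Results were called at p under 0.05, adjusted within families of 12, 8 and 4. Values of these families that rest on what chose or split the cells are printed without a p. Other clone rules, UMI limits, germline rules, thinning of KO (20 draws), counting each clone once and leaving out each library were tried. Scripts were tested on simulated data and ran on SciPy 1.17.1, NumPy 2.4.6, pandas 2.3.3, matplotlib 3.10.9 and Python 3.11.15. Intervals are 95% Wilson intervals, and a count of 0 is bounded at 3 cells; both cover counting error only. Cells are not replicates, and reads per contig were many, so the number of cells and clones limits the precision.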

Additional observations from a re-analysis of the deposited data

Results flagged for a closer look

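Among 130 groups of 4 libraries examined for 1 library far from the others, 5 had such a library; chance gives about 1 in 20. Framework 4 was mutated in 0.0770% of the unmutated IgM cells of KO replicate 1, against 0% in the other KO libraries, which is a single cell. In the mutated IgM cells of large clones it was mutated in 8.93% in WT replicate 1, against 10.1 to 10.4% in the other WT libraries. IGHV8-12 took 3.62% of the unmutated IgM cells in KO replicate 4, against 4.73 to 4.85% in the other KO libraries. IGHJ2 took 27.5% in KO replicate 3, against 29.0 to 29.3%, and IGHJ4 took 24.4% in KO replicate 4, against 22.4 to 22.8%.

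The gap between unmutated IgM cells of large clones and those of single-cell clones differed between the pools for 3 measures. KO minus WT was -0.46 for the log2 ratio of median heavy UMIs, 0.374 amino acids for heavy CDR3 length and 1.73 percentage points for the lambda share (exact permutation p = 0.0286 each, adjusted 0.0381). Without KO replicate 1, 2, 3 or 4 or WT replicate 2 none of them was called (adjusted exact permutation p = 0.0571 to 0.229). The lambda difference was 0.564 points with clones of 20 or more cells, and the CDR3 length difference was -0.0375 amino acids with each clone counted once.

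Barcodes that the pairing rule left out also carried these receptors. Among left-out barcodes with an IGHM heavy chain, 595 of 3474 in KO and 666 of 2788 in WT had a heavy chain identical to that of an unmutated IgM cell of a large clone of their own pool, and 7 in KO and 11 in WT had one identical to a cell of the other pool. They had several heavy chains (340 in KO, 190 in WT), no light chain (170 in KO, 181 in WT) or several light chains (85 in KO, 295 in WT).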

How the results depend on the processing

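Of 351 values of 24 results under alternatives, 306 kept their direction and side of the threshold, and 9 results did so under all of theirs. The cause of the other values was not tested, except where the alternative uses fewer cells or libraries. The counts of 351, 306 and 9 include results given above with no test, which rest on what chose or split the cells. Heavy UMIs of unmutated over mutated IgM cells (log2 -0.18, not called) were called at 80% identity (-0.22), with clones of 5 or more cells (-0.25), with germlines of at least 20 clones and 1 length (-0.31), with each clone counted once (-0.19) and with IGHV1-62-2 and IGHV1-71 as 1 gene (-0.20). The KO to WT difference in the heavy UMI gap to single cells lost its call at 80% identity (-0.43), with clones of 20 or more cells (-0.48), with germlines of at least 20 clones of any length (-0.46), with each clone counted once (-0.49) and without the largest clones (-0.47), at an adjusted exact permutation p of 0.0571 each. The KO to WT difference in the lambda gap lost its call at 80% identity (1.70), with clones of 20 or more cells (0.564), at 20 to 40 heavy UMIs (3.10), without the largest clones (1.45), with identical CDR3s (1.27), with each clone counted once (2.68) and with germlines of at least 20 clones of any length (1.52). The CDR3 length gap to single cells (-0.053, not called) turned to 0.0422 at 95% identity, 0.0778 with clones of 5 or more, 0.120, called, with each clone counted once, 0.0163 without the largest clones and 0.0877 with identical CDR3s, and was called at 20 to 40 UMIs (-0.174). Its KO to WT difference lost its call at 80% identity (0.306), with clones of 20 or more (0.647), with germlines of any length (0.391), without the largest clones (0.259) and at 20 to 40 UMIs (0.0363), and was -0.0375 with each clone counted once. The share with no light mutation lost its call with clones of 20 or more (0.245), at 20 to 40 UMIs (0.461) and with identical CDR3s (0.0357), and the KO to WT difference in its gap to single cells was 0.442 with at least 5 UMIs, 0.445 at 20 to 40 UMIs and -3.47, called, with identical CDR3s. The mutated framework 4 share differed by 0 at 20 to 40 UMIs and 0.0506 with each clone counted once, and its gap to single cells lost its call at 20 to 40 UMIs (-0.303). At 20 to 40 UMIs light UMIs turned to -4.63 and CDR3 length lost its call (0.229). The share in the 10 largest clones was 0.164 with clones of 20 or more and -1.21 with KO thinned. The difference for clones with mutated IgM cells was -0.844 at 95% identity, and that for clones with switched cells turned to 0.231 with identical CDR3s. CDR3 variants differed by 1.30 with each clone counted once. The germline rule with 1 length kept 6805 of the 11275 cells; the rule of any length, which keeps 11166, and the settings on identical CDR3s, on merged genes and without IGHV12-3 or IGKV6-13 were chosen after seeing the data.

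Leaving out 1 library, the call of no light mutation (0.412 to 0.525) was lost without KO replicate 1, 3 or 4. The KO to WT differences in the gaps of CDR3 length (0.336 to 0.426), lambda (1.19 to 2.21) and heavy UMIs (-0.48 to -0.43) changed too. Each lost its call without KO replicate 1, 2, 3 or 4 or WT replicate 2. Heavy UMIs over mutated cells (-0.23 to -0.15) gained a call without KO replicate 1 or 4. No other tested call changed. CDR3 variants, given with no test, differed by 3.09 to 4.05. Replicate numbers did not pair the libraries (correlations -0.0271, 0.0406, 0.0793 and 0.134 over 69 heavy V genes). With the replicate number as a block, values equal those reported. None could pass the threshold, since 4 pairs allow no p below 0.125. The tested values past it without the block were 0.455, 17.8, 11, 0.546, -6.18, -0.46, 0.374 and 1.73. The values -7.76, 7.88, 3.55, -2.79, -10.7 and -16.3 rest on what chose the cells and are given with no test.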
